A study of Mus musculus with 4 samples.

Results

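The genes described are 41 mouse genes known to be imprinted, that is, expressed mainly from the allele inherited from 1 parent, under the control of DNA methylation. They were chosen by name, with no rule on their expression values, but with earlier results of these data known. The gene expression table is of lung cells that were sorted and labelled as smooth muscle cells, and markers of other lung cells in it are given below. In it 38 of the 41 had a row, of 21462 genes in all, and these 38 belong to 21 imprinted loci. *Usp29*, *Magel2* and *Snurf* were not analysed here. The minimum for a test was a mean of 10 normalized counts over the libraries, which 34 of the 38 passed, as did 16659 genes of the whole table. Of the 34, 14 are known for expression from the maternal allele, 19 for expression from the paternal allele, and *Gnas* for both, depending on the transcript.

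The study compared cells labelled as Tet3 mutant with control cells in 4 RNA libraries, 2 per group. The Tet3 mutant animals carried *Tet3* fl/fl, an inducible *α-SMA* ERT2Cre transgene and a *ROSA26* tdTomato reporter. Control animals, as the methods describe them in general, lacked the floxed allele and carried the Cre transgene, the reporter or both. Since the cells were sorted by tdTomato, the control animals used here carried the reporter. By the general description in the methods, tamoxifen was given at 75 mg per kg daily for 10 days from an age of 8 weeks, and age at RNA isolation is not given in the sources used here. All mice were on the inbred C57BL/6 background, so the alleles of a gene cannot be told apart in these libraries and a value is the sum of both. Recombination was driven by an α-smooth muscle actin promoter, and the sorted fraction was the viable tdTomato-positive cells left after removal of cells with the blood cell markers CD45 and Ter-119. The labels give neither sex nor batch. The p-values measure only the spread between these 4 libraries.

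Imprinting depends on stretches of DNA that carry methylated CpG on 1 parental allele, laid down in the germ line and kept through each cell division. The mark silences a promoter, or decides which of the neighbouring genes an enhancer can reach, so that several genes of a locus often answer to 1 methylated element. Many imprinted genes act on growth, with *Igf2* as the best known growth promoter and *H19*, *Igf2r*, *Grb10* and *Cdkn1c* among those that restrain it. TET3 oxidizes 5-methylcytosine to 5-hydroxymethylcytosine, a step on a path to the removal of the mark. Methylation was not measured in the data described here.

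The values are normalized counts, scaled between libraries and rounded by the authors. Their totals ranged from 6805272 to 7164573 per library, and where values of a group are given below, replicate 1 comes before replicate 2. The targeted gene *Tet3* had 1847 and 1926 normalized counts in the controls and 1534 and 1444 in the mutants, with a log2 fold change of -0.34 ± 0.10 (SE) and a limma adjusted p of 0.681 (-0.31 without control replicate 2). These are values of the whole gene, and the deleted part was not measured on its own. Control replicate 2 stood apart from the other 3 libraries. It had 2 normalized counts of *Xist* where the others had 5214 to 6781, and 774 of the Y-linked *Ddx3y*, which was listed at 0 in the others. The Y-linked *Uty*, *Eif2s3y* and *Kdm5d* were at 536, 400 and 542 in it and at 0 or 1 in the others. By these genes control replicate 2 was male and the other 3 libraries female, so sex was not balanced between the groups. Control replicate 2 differed more than 2-fold from each other library in 1056 of the tested genes (6.34%). Fold changes, ratios and medians are therefore also given without it. Markers of smooth muscle were present in every library, with *Acta2* at 686 to 1032 normalized counts. Per kilobase of exon, mean levels over the 4 libraries were 403.8 for *Acta2* and 274.8 for *Myh11*, against 575.3 for *Col1a1* and 472.0 for *Pdgfra*, which mark fibroblasts. Markers of other lung cells were present too, some at higher levels than *Acta2*. Among these were *Sftpc* at 909.8 (alveolar type 2 cells), *Lyz2* at 894.9 (macrophages) and *Scgb1a1* at 666.0 (club cells). Other markers of the same cells were lower than *Acta2*, such as *Etv5* at 240.4, *Marco* at 38.3 and *Scgb3a2* at 147.2. Summed levels of the markers are given beside the genes that they moved with or with the processing.

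The *H19* transcript contains a small RNA hairpin that is cut into the miRNAs miR-675-5p and miR-675-3p. They are shown because *H19* had the largest fold change among the imprinted genes, and the miRNAs themselves were not measured. The mature sequences are from RefSeq (GRCm38.p6, minus strand), 5′ to 3′, with the seed (bases 2 to 8) in capitals. They lie at chr7:142577112-142577133 for the 5p arm and chr7:142577078-142577099 for the 3p arm, and the seeds differ.
mmu-miR-675-5p: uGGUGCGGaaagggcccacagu
mmu-miR-675-3p: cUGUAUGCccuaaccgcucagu
Other imprinted transcripts in the set also span miRNA hairpins, with 14 in *Mirg*, 3 in *Rian*, and 1 each in *Meg3* and *Mest*.

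CpG dinucleotides are the bases that carry imprints, and the promoters of the imprinted genes varied widely in their number. RefSeq (GRCm38.p6) gave a promoter window of 300 bases, 250 before and 50 after the start, for 30 of the 38 genes. In 5 of the 30, *Plagl1*, *Mest*, *Mirg*, *Ndn* and *Grb10*, the window lay more than 1000 bases from the gene start of the deposited table. The median was 12.5 CpG per window, against 7 over all 32851 windows in the table, and 7 of the 30 had fewer than that, with 0 in *Rian* and 2 each in *Igf2* and *Slc22a18*. The letters TGCCGC, the core of the methylated motif bound by the imprint protector ZFP57, were found on either strand (TGCCGC or GCGGCA) in 8 of the 30 windows (26.7%), against 11.6% of all windows. TGCCGC itself holds a CpG, and the shares were not compared at equal CpG number. Binding of ZFP57 was not tested. Promoters are shown for 4 genes, those of smallest limma p that had a window and a mean of at least 50 normalized counts. Only bases that lie before the gene start of both RefSeq and the deposited table are printed, 5′ to 3′ along the gene, with CpG in capitals. They are *Slc38a4* (chr15:97055957-97056206, minus strand, 3 CpG in 250 bases), *Ppp1r9a* (chr6:4902725-4902916, plus strand, 3 CpG in 192 bases), *Inpp5f* (chr7:128611115-128611327, plus strand, 10 CpG in 213 bases) and *Mcts2* (chr2:152686898-152687034, plus strand, 12 CpG in 137 bases).
Slc38a4: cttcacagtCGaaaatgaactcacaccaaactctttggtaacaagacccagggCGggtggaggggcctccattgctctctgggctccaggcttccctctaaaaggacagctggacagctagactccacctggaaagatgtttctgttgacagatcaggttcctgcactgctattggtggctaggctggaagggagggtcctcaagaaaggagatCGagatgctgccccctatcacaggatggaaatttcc
Ppp1r9a: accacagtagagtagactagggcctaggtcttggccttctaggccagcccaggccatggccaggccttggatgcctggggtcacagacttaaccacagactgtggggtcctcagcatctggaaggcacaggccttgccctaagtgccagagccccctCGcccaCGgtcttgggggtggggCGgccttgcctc
Inpp5f: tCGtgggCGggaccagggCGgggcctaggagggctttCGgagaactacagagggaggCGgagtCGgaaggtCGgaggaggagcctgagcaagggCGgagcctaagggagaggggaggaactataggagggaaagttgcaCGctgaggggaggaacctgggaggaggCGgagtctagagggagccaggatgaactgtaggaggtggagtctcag
Mcts2: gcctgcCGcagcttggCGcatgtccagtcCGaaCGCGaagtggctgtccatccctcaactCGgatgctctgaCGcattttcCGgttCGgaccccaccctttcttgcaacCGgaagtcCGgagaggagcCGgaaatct
The *Mcts2* stretch was the only one of the 4 that contained TGCCGC, near its 5′ end. As printed, the *Mcts2* and *Inpp5f* stretches were denser in CpG than those of *Slc38a4* and *Ppp1r9a*, but the stretches differ in length. The full windows of 300 bases held 25 CpG in *Mcts2*, 15 in *Inpp5f*, 10 in *Ppp1r9a* and 5 in *Slc38a4*. Of these, only *Slc38a4* lay under the median of 7 over all windows. In *Inpp5f* a variant is known to be imprinted, and the stretch shown, at the start of the whole gene, was not matched to that variant.

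Taken over the whole set, the imprinted genes had fold changes centred near 0. Their median log2 fold change, Tet3 mutant over control, was 0.01, and 0.00 without control replicate 2, where the median over all genes tested was -0.01. Above 0 were 17 of the 34 and below 0 the other 17, and over all genes 49% were above 0. None of the 34 had a limma adjusted p under 0.05, as was the case for all 16659 genes (0%). In fits that leave 1 library in a group, the spread comes from the 2 libraries of the other group alone. Their p-values then carry no spread from the group of 1. At an unadjusted p under 0.05 stood 2 of the 34, against 6.68% of all genes tested. They were *H19*, which was higher in the mutants (3.83% of all genes were called higher), and *Slc38a4*, which was lower (2.85% of all genes). Without control replicate 2, neither of these stood under that limit and *Cdkn1c*, which was higher, alone did. All genes then gave 5.37%, with 3.07% higher and 2.3% lower. Leaving out control replicate 1 instead, so that control replicate 2 was the only control, put 8 of the 34 under it, where the share of all genes was 20.2%. These 8 were *Peg3*, *Zim1*, *Grb10* and *Inpp5f* (higher) and *Slc22a18*, *Ppp1r9a*, *Slc38a4* and *Nnat* (lower). Without mutant replicate 1 it was *Kcnq1ot1* (lower) alone, against 1.64% of all genes, and without mutant replicate 2 it was *H19* and *Rian* (both higher), against 2.49%.

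The 2 mutant libraries lay on the same side of both controls in 13 of the 34 genes (38.2%), a share near the 39% of all genes tested. The 6 with both mutants higher were *H19*, *Cdkn1c*, *Commd1*, *Nap1l5*, *Inpp5f* and *Dcn*, and over all genes 19.6% were of this kind. The 7 with both mutants lower were *Slc22a18*, *Peg10*, *Ppp1r9a*, *Zrsr1*, *Mcts2*, *Slc38a4* and *Peg13*, against 19.5% of all genes. Among the 34, 6 differed more than 1.5-fold in either direction (16.9% of all genes did). These were *H19* and *Zim1* (higher) and *Slc22a18*, *Nnat*, *Ppp1r9a* and *Slc38a4* (lower). Control replicate 2 was the highest library in 12 of the 34 (33.2% of all genes) and the lowest in 9 (33.1% of all genes). It was more than 2-fold from each other library in 5 of the 34, against 6.34% of all genes. The direction of the log2 fold change was the same without it in 28 of the 34, against 76.6% of all genes. Summed over the 38 genes, imprinted transcripts took 0.274% and 0.2847% of the total in the controls and 0.289% and 0.256% in the mutants, so the groups overlapped.

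**Figure D1:**
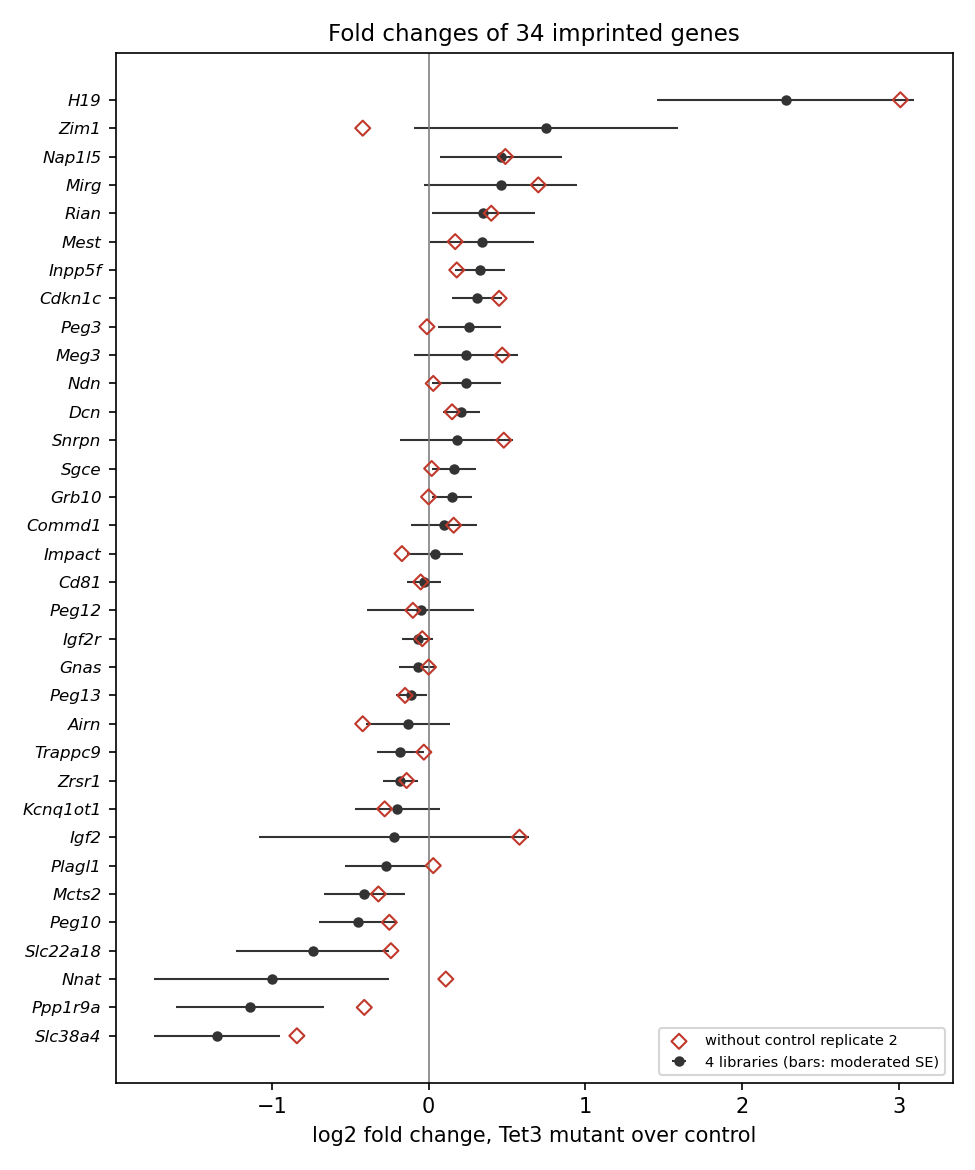
Log2 fold change, Tet3 mutant over control (x axis), for the 34 tested imprinted genes (y axis), sorted by size. Points with bars are the estimates from all 4 libraries with their moderated standard errors, and open diamonds are the estimates without control replicate 2. *H19* lies farthest to the right at 2.28 and *Slc38a4* farthest to the left at -1.35, most genes lie within 0.5 of 0, and the diamonds of *Zim1*, *Nnat* and *Ppp1r9a* lie far from their points.

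Expression levels of the imprinted genes, compared as mean normalized counts per kilobase of exon over the 4 libraries, ran from near the bottom to near the top of the genes tested. *Cd81*, which encodes a tetraspanin of the cell surface, was the highest at 387.6, the 98.3rd percentile of all genes tested. Next came *Igf2r* at 331.8 (97.4th percentile), *Peg13* at 251.8 (94.9th percentile) and *Dcn* at 235.5 (94.0th percentile). *Dcn* encodes decorin, a matrix proteoglycan that is also a product of fibroblasts. The lowest were *Zim1* at 3.74 (2.7th percentile), *Mirg* at 2.85 (1.5th percentile) and *Igf2* at 1.79 (0.5th percentile). By these values the receptor that clears IGF2 was among the most abundant imprinted transcripts in these libraries and *Igf2* itself among the least. The level of *Igf2* is uncertain, since 62.83% of its exon length is shared with *Gm49394* and reads that fell in several genes were not counted. *Gnas* and *Zrsr1*, at 146.7 and 146.5 per kilobase, were neighbours that did not differ beyond the spread between libraries.

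**Figure D2:**
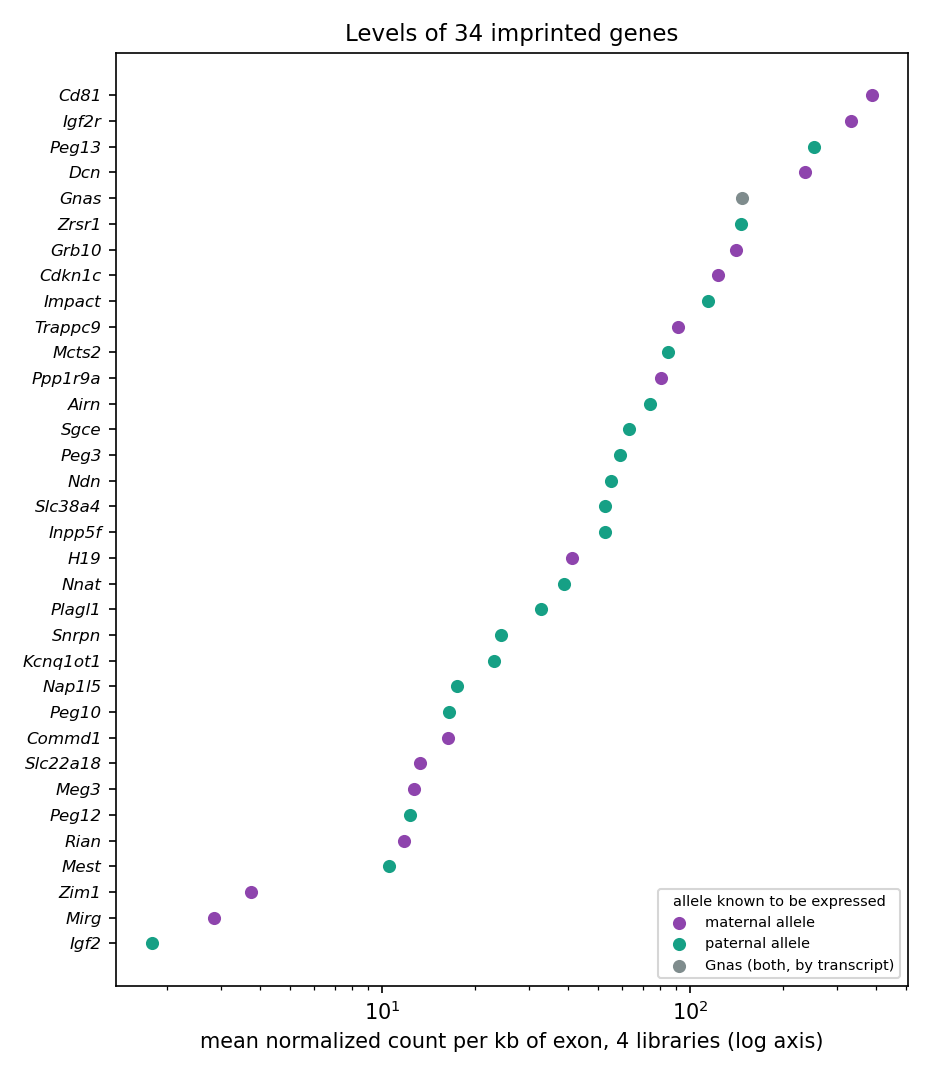
Mean normalized count per kilobase of exon over the 4 libraries (x axis, log scale) for the 34 tested imprinted genes (y axis), coloured by the allele each is known to be expressed from. *Cd81*, *Igf2r*, *Peg13* and *Dcn* lie above 200, and *Zim1*, *Mirg* and *Igf2* lie below 4.

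Under the minimum were 4 genes with a row. *Phlda2*, a growth-restraining gene of the placenta, had 4 and 21 normalized counts in the controls and 1 and 5 in the mutants. *Rasgrf1*, a Ras activator known from brain, had 6 and 19 in the controls and 5 and 7 in the mutants. *Dlk1*, which encodes a Notch-like ligand of fetal tissue, had 2 and 1 in the controls and 2 and 7 in the mutants. *Asb4* had 9 and 2 in the controls and 4 and 7 in the mutants. In each of the 4 the groups overlapped, and several values lay at or under 3, taken as the floor of detection, which covers counting error only.

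**Figure D3:**
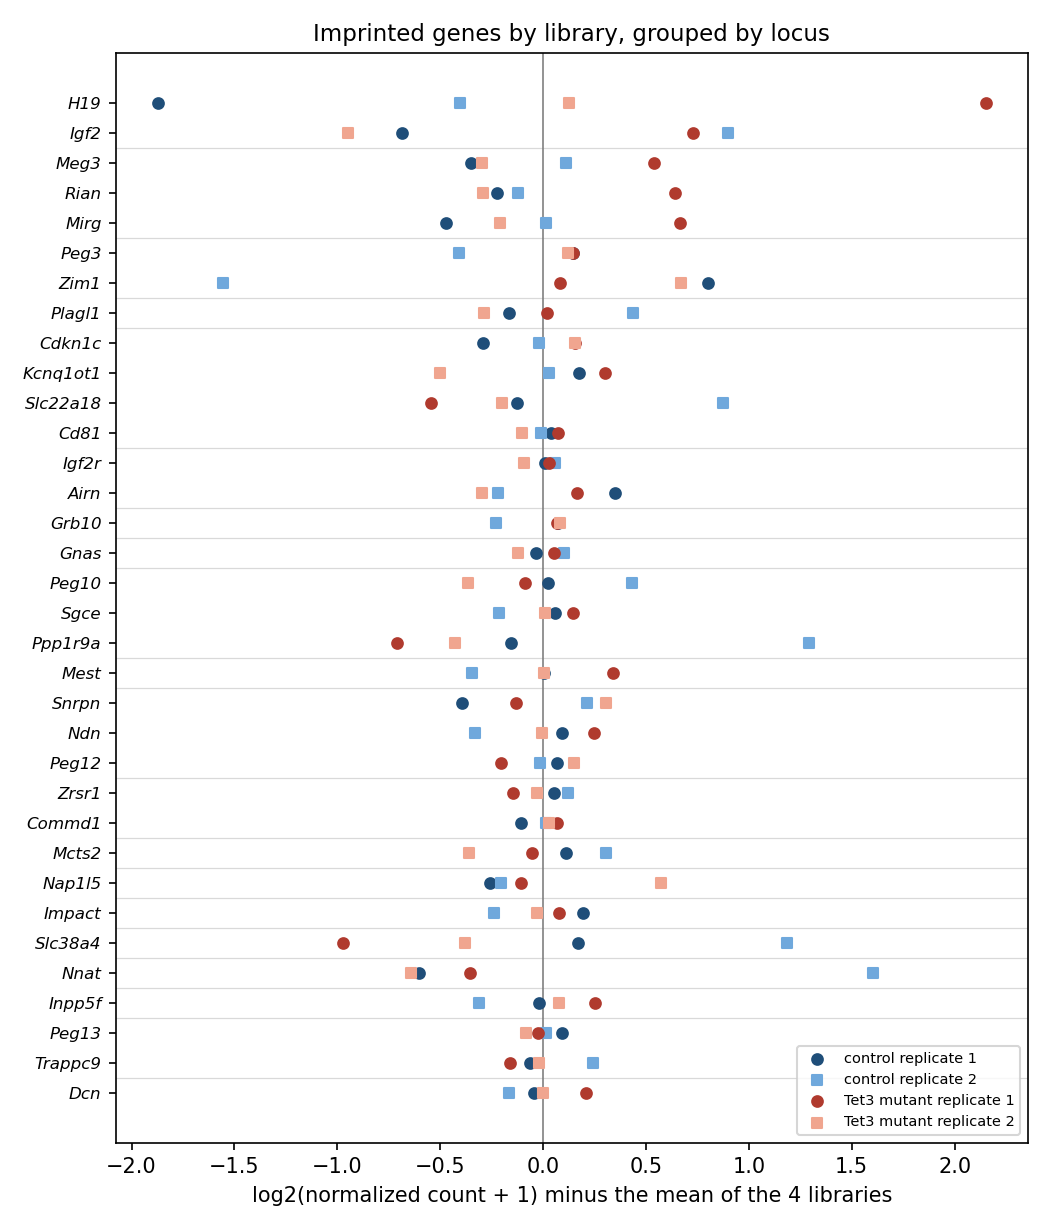
Values of the 34 tested imprinted genes in each library, as log2(normalized count + 1) minus the mean of the 4 libraries (x axis), with genes on the y axis grouped by locus and 1 marker per library. Control replicate 2 lies far from the other libraries in *Zim1*, *Ppp1r9a* and *Nnat*, and Tet3 mutant replicate 1 lies highest in *H19*, *Meg3*, *Rian* and *Mirg*.

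At the *H19*/*Igf2* locus, the maternally expressed noncoding RNA was higher in both mutant libraries and the paternally expressed growth factor was near the limit of detection in all 4. *H19* (chromosome 7, 142575529 to 142578143) had 16 and 46 normalized counts in the controls and 276 and 67 in the mutants. Its means were 31.0 ± 21.2 (SD, n = 2) in controls and 171.5 ± 148 in mutants. Both mutants lay above both controls, and mutant replicate 1 was far above mutant replicate 2. The log2 fold change was 2.28 ± 0.82 (SE), the limma p was 0.039 and the adjusted p 0.681, and without control replicate 2 the log2 fold change was 3.01 at a limma p of 0.0706. Leaving out each library in turn gave 1.27 to 3.29. *Igf2* (chromosome 7, 142650766 to 142666816) had 5 and 17 normalized counts in the controls and 15 and 4 in the mutants, with means of 11 ± 8.49 (SD, n = 2) and 9.5 ± 7.78. The groups overlapped, and the log2 fold change of -0.22 ± 0.86 (SE) turned to 0.58 without control replicate 2. Of the exon length of *Igf2*, 62.83% is shared with *Gm49394* on the same strand, and since reads that fell in several genes were not counted, the level of *Igf2* is uncertain.

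The 2 genes moved together among libraries of a group, being higher in control replicate 2 than in control replicate 1 and higher in mutant replicate 1 than in mutant replicate 2. Within each group their ratio differed less between libraries than either gene did. On the log2 scale, the ratio of *Igf2* to *H19* was -1.5 and -1.38 in the controls and -4.11 and -3.77 in the mutants. The mutant mean minus the control mean was -2.5, and -2.44 without control replicate 2, and leaving out each library in turn gave -2.67 to -2.32. The exact two-sided permutation p was 0.333, the smallest that 2 against 2 libraries can give. The ratio rests on *Igf2* values of 4 to 17.

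*Slc38a4* (chromosome 15, 96994820 to 97055956), a paternally expressed amino acid transporter whose promoter is shown above, was lower in both mutants. It had 217 and 440 normalized counts in the controls and 98 and 148 in the mutants. The means were 328.5 ± 158 (SD, n = 2) and 123.0 ± 35.4. Its log2 fold change was -1.35 ± 0.40 (SE) at a limma p of 0.0192 and an adjusted p of 0.681, and -0.84 at a limma p of 0.0952 without control replicate 2, which was 2.85 times the mean of the other 3 libraries. *Ppp1r9a* (chromosome 6, 4902917 to 5165661), which encodes the actin-binding protein phosphatase regulator neurabin and is known for maternal expression in some tissues, showed the same order of libraries. It had 892 and 2430 normalized counts in the controls and 607 and 738 in the mutants, with means of 1661.0 ± 1088 (SD, n = 2) and 672.5 ± 92.6. The log2 fold change was -1.14 ± 0.47 (SE) at a limma p of 0.0603, and -0.41 at a limma p of 0.0905 without control replicate 2, which was 3.26 times the mean of the others.

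The transporter gene *Slc22a18* (chromosome 7, 143473736 to 143499334) of the *Kcnq1* locus had 19 and 39 normalized counts in the controls and 14 and 18 in the mutants. The means were 29.0 ± 14.1 (SD, n = 2) and 16 ± 2.83, and the log2 fold change was -0.74 ± 0.49 (SE) at a limma p of 0.192, or -0.24 without control replicate 2. *Slc38a4*, *Ppp1r9a*, *Slc22a18* and *Zrsr1* ran from control replicate 2 through control replicate 1 and mutant replicate 2 down to mutant replicate 1, an order found in 7.87% of all genes tested. The summed markers of alveolar type 2 cells, the surfactant-producing cells of the alveolus, had the same order. They totalled 16681 and 25097 normalized counts in the controls and 11307 and 15141 in the mutants. All 10 of these markers were below 0 in log2 fold change, with a median of -0.71, or -0.39 without control replicate 2. Of the 10, 8 had both mutants under both controls, against 19.5% of all genes, and none was at 0 in any library. Their part in the values of the 4 imprinted genes was not tested. In bulk RNA, fewer cells of a type and less RNA per cell cannot be told apart.

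**Figure D4:**
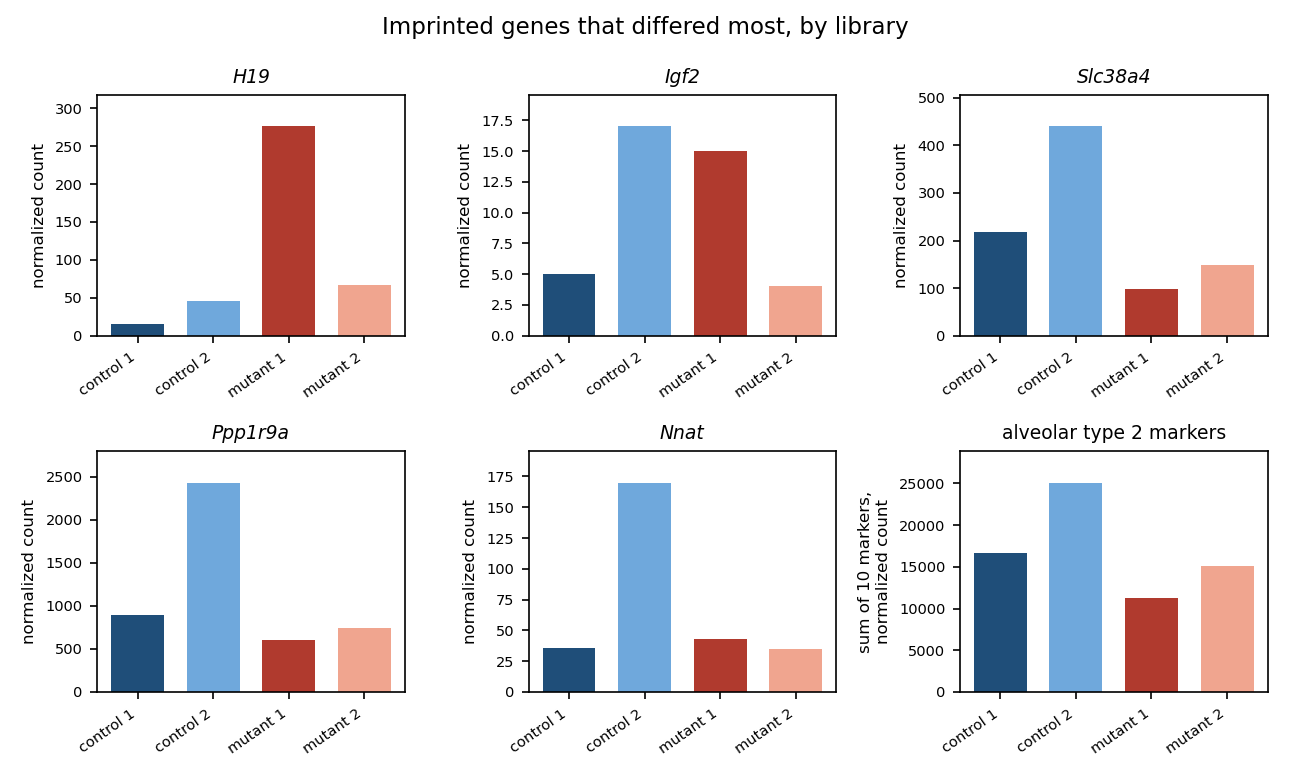
Normalized counts (y axes, each starting at 0) of *H19*, *Igf2*, *Slc38a4*, *Ppp1r9a* and *Nnat*, and the sum over 10 markers of alveolar type 2 cells, with 1 bar per library. *H19* reaches 276 in mutant replicate 1 and 67 in mutant replicate 2, *Nnat* reaches 170 in control replicate 2 only, and *Slc38a4*, *Ppp1r9a* and the marker sum share 1 order of libraries.

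*Ppp1r9a* lies in the *Peg10* locus, where its neighbours had a range of differences. The nearby *Pon3*, described further below, had a log2 fold change of -0.81, or -0.40 without control replicate 2. *Peg10* (chromosome 6, 4747306 to 4760517), a retrotransposon-derived gene needed in the placenta, had 109 and 145 normalized counts in the controls and 101 and 83 in the mutants. The means were 127.0 ± 25.5 (SD, n = 2) and 92.0 ± 12.7, and the log2 fold change was -0.45 ± 0.25 (SE) at a limma p of 0.134, or -0.25 without control replicate 2. *Sgce*, which encodes ε-sarcoglycan of the muscle membrane and is transcribed away from *Peg10*, had 693 and 575 in the controls and 738 and 670 in the mutants. Its groups overlapped, with a log2 fold change of 0.16 ± 0.14 (SE), or 0.02 without control replicate 2. As a log2 ratio, *Peg10* to *Asb4*, given as values only because *Asb4* was under the minimum, was 3.46 and 5.6 in the controls and 4.35 and 3.39 in the mutants.

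Several paternally expressed genes are retrogenes or small transcripts that lie in an intron of a host gene. *Nnat* (chromosome 2, 157560078 to 157562522), a proteolipid gene in an intron of *Blcap*, had 36 and 170 normalized counts in the controls and 43 and 35 in the mutants. Control replicate 2 alone was high, at 4.47 times the mean of the other 3 libraries. The means were 103.0 ± 94.8 (SD, n = 2) and 39.0 ± 5.66, and the log2 fold change of -1.0 ± 0.75 (SE) turned to 0.11 without that library. *Blcap* had 305 and 459 in the controls and 270 and 282 in the mutants, with a log2 fold change of -0.44 ± 0.23 (SE), or -0.14 without control replicate 2. The log2 ratio of *Nnat* to *Blcap* was -3.05 and -1.43 in the controls and -2.62 and -2.97 in the mutants, a difference of -0.56 at an exact two-sided permutation p of 1.0 that turned to 0.25 without control replicate 2.

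*Mcts2* (chromosome 2, 152687035 to 152687946), a retrogene in an intron of *H13*, was lower in both mutants. It had 82 and 94 normalized counts in the controls and 73 and 59 in the mutants, with means of 88.0 ± 8.49 (SD, n = 2) and 66.0 ± 9.90. The log2 fold change was -0.41 ± 0.26 (SE) at a limma p of 0.169, and -0.32 without control replicate 2. Its host *H13*, which encodes signal peptide peptidase, had 1321 and 1485 in the controls and 1273 and 1192 in the mutants, with a log2 fold change of -0.19 ± 0.11 (SE), or -0.10 without control replicate 2. The log2 ratio of *Mcts2* to *H13* was -3.99 and -3.97 in the controls and -4.11 and -4.31 in the mutants, so that the retrogene was also lower relative to its host. The difference was -0.23 (-0.22 without control replicate 2) at an exact two-sided permutation p of 0.333, the smallest possible.

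*Nap1l5* (chromosome 6, 58905233 to 58907076), a retrogene in an intron of *Herc3*, differed in the other direction. It had 26 and 27 normalized counts in the controls and 29 and 47 in the mutants, with means of 26.5 ± 0.707 (SD, n = 2) and 38.0 ± 12.7. The log2 fold change was 0.46 ± 0.39 (SE) at a limma p of 0.282, and 0.49 without control replicate 2. *Herc3*, a ubiquitin ligase gene, had 188 and 274 in the controls and 183 and 181 in the mutants, with a log2 fold change of -0.32 ± 0.23 (SE), or -0.05 without control replicate 2. Relative to its host, as the log2 ratio of *Nap1l5* to *Herc3*, it was at -2.81 and -3.3 in the controls and -2.62 and -1.92 in the mutants. This was higher in the mutants by 0.78, and by 0.54 without control replicate 2, at an exact two-sided permutation p of 0.333.

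*Zrsr1* (chromosome 11, 22972005 to 22976496), a splicing factor retrogene of paternal expression, lies within *Commd1* on the opposite strand, and *Commd1* is known for more expression from the maternal allele. *Zrsr1* had 682 and 715 normalized counts in the controls and 593 and 643 in the mutants, with means of 698.5 ± 23.3 (SD, n = 2) and 618.0 ± 35.4. Its log2 fold change was -0.18 ± 0.11 (SE) at a limma p of 0.176. *Commd1* had 90 and 98 in the controls and 102 and 99 in the mutants, with means of 94.0 ± 5.66 (SD, n = 2) and 100.5 ± 2.12 and a log2 fold change of 0.10 ± 0.21 (SE). Both genes kept their direction without control replicate 2, at -0.14 and 0.16. The pair thus differed in opposite directions, and the log2 ratio of *Zrsr1* to *Commd1* was 2.91 and 2.85 in the controls and 2.53 and 2.69 in the mutants. This was -0.27 in the mutants relative to the controls (-0.3 without control replicate 2) at an exact two-sided permutation p of 0.333. Of the exon length, 9.172% of *Zrsr1* and 6.941% of *Commd1* are shared between them on opposite strands, and whether strand was used in counting is not given in the sources used here.

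*Inpp5f* (chromosome 7, 128611328 to 128696425), an inositol phosphatase gene with an imprinted variant of paternal expression, was higher in both mutants. It had 430 and 351 normalized counts in the controls and 518 and 459 in the mutants. The means were 390.5 ± 55.9 (SD, n = 2) and 488.5 ± 41.7, and the log2 fold change was 0.33 ± 0.16 (SE) at a limma p of 0.0913, or 0.18 without control replicate 2. The value covers all transcripts of the gene, and the imprinted variant cannot be told apart in it.

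The noncoding RNA *Peg13* (chromosome 15, 72805600 to 72810324) lies in an intron of *Trappc9*, a trafficking complex gene, and the pair is known for imprinted expression in brain. *Peg13* had 1268 and 1201 normalized counts in the controls and 1167 and 1123 in the mutants, with means of 1234.5 ± 47.4 (SD, n = 2) and 1145.0 ± 31.1. Its log2 fold change was -0.11 ± 0.10 (SE) at a limma p of 0.331, and -0.15 without control replicate 2. *Trappc9* had 688 and 850 in the controls and 643 and 709 in the mutants, with a log2 fold change of -0.18 ± 0.15 (SE), or -0.03 without control replicate 2. Their log2 ratio, *Peg13* to *Trappc9*, was 0.88 and 0.5 in the controls and 0.86 and 0.66 in the mutants. The groups overlapped, and the difference of 0.07, at an exact two-sided permutation p of 1.0, was -0.12 without control replicate 2.

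At the *Kcnq1* locus, the long noncoding RNA *Kcnq1ot1* of the paternal allele is known to silence its neighbours on that allele. *Kcnq1ot1* (chromosome 7, 143203458 to 143296549) had 2372 and 2140 normalized counts in the controls and 2585 and 1482 in the mutants. The mutants lay on both sides of the controls, with a log2 fold change of -0.20 ± 0.27 (SE), or -0.28 without control replicate 2. *Cdkn1c* (chromosome 7, 143458339 to 143461050), the maternally expressed inhibitor of cyclin-dependent kinases, had 203 and 245 in the controls and 277 in each mutant. Its means were 224.0 ± 29.7 (SD, n = 2) and 277.0, and the log2 fold change was 0.31 ± 0.16 (SE) at a limma p of 0.115. Without control replicate 2, it was 0.45. The 2 mutant values are equal, so that fit had no spread between libraries of this gene to rest on. Of the exon length of *Cdkn1c*, 30.65% is shared on the opposite strand with *Gm44732*.

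*Cd81*, another tested gene of the locus, had 1145 and 1107 normalized counts in the controls and 1174 and 1038 in the mutants, with a log2 fold change of -0.03 ± 0.11 (SE), or -0.05 without control replicate 2. The log2 ratio of *Kcnq1ot1* to *Cdkn1c* was 3.54 and 3.12 in the controls and 3.22 and 2.42 in the mutants, a difference of -0.51 at an exact two-sided permutation p of 0.667, and of -0.72 without control replicate 2. With 2 libraries a group, an exact test of a ratio cannot pass a threshold of 0.05.

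In the *Dlk1-Dio3* locus the maternally expressed noncoding RNAs *Meg3*, *Rian* and *Mirg*, hosts of small nucleolar RNAs and miRNAs, shared 1 pattern. *Meg3* (chromosome 12, 109541001 to 109571726) had 174 and 240 normalized counts in the controls and 323 and 181 in the mutants. *Rian* had 176 and 189 in the controls and 322 and 168 in the mutants, and *Mirg* had 14 and 20 in the controls and 32 and 17 in the mutants. In all 3, mutant replicate 1 was the highest library and mutant replicate 2 lay within or near the controls, so the groups overlapped. Their log2 fold changes were 0.24 ± 0.33, 0.35 ± 0.33 and 0.46 ± 0.49 (SE), and 0.47, 0.40 and 0.70 without control replicate 2. The directions of *Meg3* and *Rian* turned to -0.17 and -0.12 without mutant replicate 1. As a log2 ratio, *Dlk1* to *Meg3*, given as values only because *Dlk1* was under the minimum, was -5.87 and -6.91 in the controls and -6.75 and -4.51 in the mutants.

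Mutant replicate 1 was the highest of the 4 libraries in 12 of the 34 imprinted genes, against 20.7% of all genes tested. Among the 14 maternally expressed genes it was the highest in 7, and among the 19 paternally expressed genes in 5. It was the highest in 5 of the 7 noncoding RNAs, namely *H19*, *Meg3*, *Rian*, *Mirg* and *Kcnq1ot1*, the exceptions being *Airn* and *Peg13*. The description by highest library was chosen after the values were seen, and the genes of a locus are not independent of each other. The summed markers of ciliated cells of the airway were also highest in this library. They totalled 3429 and 3848 normalized counts in the controls and 6953 and 4672 in the mutants. All 10 were above 0 in log2 fold change, although *Rsph1* was highest in mutant replicate 2, at 111 against 93. None of these markers was at 0 in any library. Smooth muscle markers summed to 5108 and 6747 in the controls and 7952 and 7612 in the mutants, and those of pericytes to 6013 and 6433 against 8600 and 7294. The sums for fibroblasts, endothelium and cardiomyocytes were also highest in mutant replicate 1, at 27232, 16142 and 1022. The part of these cells in the values of the noncoding RNAs was not tested.

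For *Igf2r*, *Airn*, *Grb10* and *Plagl1*, which act on the IGF and insulin path or on its genes, the groups overlapped. *Igf2r* (chromosome 17, 12682406 to 12769664), the maternally expressed receptor that takes up IGF2 for degradation, had 3102 and 3214 normalized counts in the controls and 3145 and 2892 in the mutants. The log2 fold change of *Igf2r* was -0.07 ± 0.10 (SE), or -0.04 without control replicate 2. *Airn* (chromosome 17, 12741311 to 12860136), the paternal noncoding RNA that silences *Igf2r*, had 333 and 224 in the controls and 293 and 212 in the mutants, with a log2 fold change of -0.13 ± 0.27 (SE), or -0.42 without control replicate 2. The log2 ratio of *Airn* to *Igf2r* was -3.22 and -3.84 in the controls and -3.42 and -3.76 in the mutants, a difference of -0.07 at an exact two-sided permutation p of 1.0, and of -0.38 without control replicate 2. *Grb10*, an adaptor that restrains the insulin and IGF1 receptors, had 1343 and 1091 in the controls and 1340 and 1353 in the mutants. In *Grb10* control replicate 2 was the lowest and the other 3 libraries lay close together, and the log2 fold change of 0.15 ± 0.13 (SE) was 0.00 without it. *Plagl1*, a transcription factor of a network of imprinted growth genes, had 223 and 340 in the controls and 254 and 205 in the mutants, with a log2 fold change of -0.27 ± 0.26 (SE) that was 0.03 without control replicate 2.

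*Peg3* and *Zim1*, zinc finger genes that neighbour each other and are known for expression from opposite alleles, both depended on control replicate 2. *Peg3* (chromosome 7, 6703892 to 6730431) had 859 and 584 normalized counts in the controls and 858 and 844 in the mutants, and *Zim1* (chromosome 7, 6671269 to 6696450) had 45 and 8 in the controls and 27 and 41 in the mutants. In both, control replicate 2 was the lowest library. The log2 fold changes of 0.26 ± 0.20 (SE) and 0.75 ± 0.84 were -0.01 and -0.42 without it. The log2 ratio of *Peg3* to *Zim1* was 4.22 and 6.02 in the controls and 4.94 and 4.33 in the mutants, a difference of -0.49 at an exact two-sided permutation p of 1.0 that turned to 0.41 without control replicate 2.

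*Dcn* (chromosome 10, 97479609 to 97518143), known for maternal expression in the placenta, had 1327 and 1222 normalized counts in the controls and 1582 and 1368 in the mutants. Both mutants were higher, with means of 1274.5 ± 74.2 (SD, n = 2) in the controls and 1475.0 ± 151 in the mutants, and the log2 fold change was 0.21 ± 0.12 (SE) at a limma p of 0.147, or 0.15 without control replicate 2. Markers of fibroblasts, which also make decorin, summed to 25126 and 20990 in the controls and 27232 and 24433 in the mutants. Of these 10 markers, 9 were above 0, their median log2 fold change was 0.18 (0.06 without control replicate 2), and none was at 0 in any library. Their part in the value of *Dcn* was not tested.

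The remaining tested genes had overlapping groups and log2 fold changes between -0.07 and 0.34, or between -0.17 and 0.48 without control replicate 2. *Gnas*, which encodes the stimulatory G protein α subunit, had 1602 and 1758 normalized counts in the controls and 1702 and 1503 in the mutants. *Mest* had 41 and 32 in the controls and 52 and 41 in the mutants, and *Impact*, a regulator of the kinase GCN2, had 665 and 492 in the controls and 612 and 568 in the mutants. In the *Snrpn* locus, the region of the Prader-Willi syndrome in humans, *Snrpn* had 39 and 60 in the controls and 47 and 64 in the mutants, *Ndn* had 215 and 160 against 240 and 201, and *Peg12* had 34 and 32 against 28 and 36. Exons of some of these genes overlap others, with 21.96% of *Gnas* and 23.12% of *Mest* shared on the opposite strand and 27.28% of *Snrpn* shared on the same strand.

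Of 11 ratios fixed between neighbouring or host genes, 9 had both genes over the minimum. The groups did not overlap in 4 of the 9, which gave the smallest p that the exact permutation test allows, 0.333. Among single genes, 39% of all those tested had groups that did not overlap, and no such share was computed for ratios. These were *Igf2* to *H19*, *Zrsr1* to *Commd1*, *Mcts2* to *H13* and *Nap1l5* to *Herc3*. Since their groups did not overlap, leaving out any 1 library could not change their direction. A ratio within a library does not depend on how libraries were scaled to each other. After Benjamini-Hochberg adjustment no p can lie under 0.333.

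**Figure D5:**
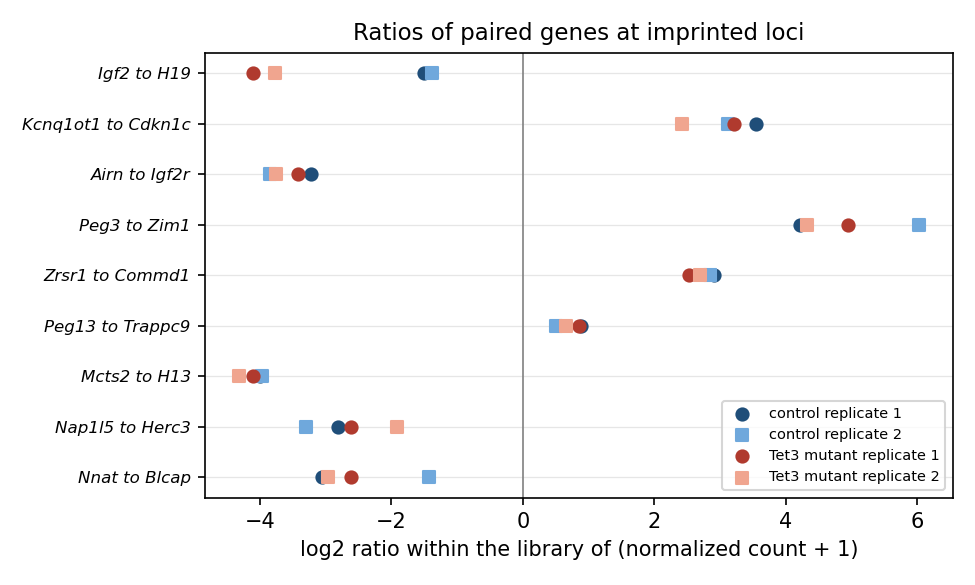
Log2 ratio of 2 genes of the same locus within each library (x axis, from normalized count + 1), for the 9 pairs tested (y axis), with 1 marker per library. For *Igf2* to *H19* the mutants lie at -4.11 and -3.77 and the controls at -1.5 and -1.38, and for *Airn* to *Igf2r*, *Peg3* to *Zim1* and *Peg13* to *Trappc9* the groups overlap.

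By parental allele, the maternally expressed genes had a median log2 fold change of 0.18 (0.08 without control replicate 2) with 9 of 14 above 0, and the paternally expressed genes one of -0.11 (-0.01 without control replicate 2) with 8 of 19 above 0. Groups did not overlap in 6 of the 14, 4 higher and 2 lower, and in 7 of the 19, 2 higher and 5 lower, where 39% of all genes did not overlap, 19.6% higher and 19.5% lower. The medians of both classes were nearer to 0 without control replicate 2, and the difference between them was not tested, because genes of a locus are not independent.

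Genes that keep or remove imprints were compared in the same fit. Of 23 listed, 20 were tested, and *Tet3* itself and *Tdg* stood at an unadjusted p under 0.05, both lower in the mutants (2.85% of all genes were called lower). *Tdg* encodes the glycosylase that excises the later products of TET oxidation, those past the hydroxymethyl step. It had 139 and 149 normalized counts in the controls and 47 and 101 in the mutants. The log2 fold change of *Tdg* was -1.05 ± 0.40 (SE) at a limma p of 0.0462 and an adjusted p of 0.681, and -1.0 without control replicate 2. *Zfp57* and *Zfp445*, which encode zinc finger proteins that protect imprints, had log2 fold changes of -0.47 and -0.18, and *Zfp57* was at 95 and 232 in the controls and 122 and 94 in the mutants. Without control replicate 2 the value of *Zfp57* turned to 0.17 and that of *Zfp445* was -0.17. Their partner *Trim28* had 0.02, the insulator gene *Ctcf* 0.03, and the maintenance methyltransferase gene *Dnmt1* 0.18, or 0.08, 0.04 and 0.22 without control replicate 2. The median of the list was -0.11 (-0.05 without control replicate 2), with 6 of 20 above 0.

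Of 18 genes of IGF and insulin signalling outside the imprinted set, 15 were tested and 4 stood at an unadjusted p under 0.05, 1 higher and 3 lower. Over all genes the share was 6.68%, with 3.83% higher and 2.85% lower. *Pappa2*, a protease that frees IGF from its binding proteins, had 148 and 380 normalized counts in the controls and 607 and 648 in the mutants, with a log2 fold change of 1.40 ± 0.44 (SE) at a limma p of 0.0245, or 2.08 without control replicate 2. The other 3 were lower. The insulin receptor gene *Insr* had 1928 and 1924 in the controls and 1552 and 1493 in the mutants, a log2 fold change of -0.34 ± 0.10 (SE) at a limma p of 0.0161. The adaptors *Irs1* and *Irs2* had log2 fold changes of -0.38 and -0.58 at limma p of 0.0179 and 0.0235. Without control replicate 2 these 3 genes had -0.34, -0.46 and -0.36, and all 4 had an adjusted p of 0.681 over the 4 libraries. The list as a whole had a median of 0.16 (0.13 without control replicate 2), with 11 of 15 above 0, *Igf1* at 0.54 (0.15 without control replicate 2) and *Igf1r* at 0.16 (-0.01 without control replicate 2).

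A further list held 39 other imprinted genes and host genes, of which 26 were tested. *Zfp787*, which was lower, alone stood at an unadjusted p under 0.05 (6.68% of all genes, 2.85% lower), with 269 and 308 normalized counts in the controls, 211 and 224 in the mutants and a log2 fold change of -0.40 ± 0.16 (SE) at a limma p of 0.0475 (-0.31 without control replicate 2). The median was -0.08 (-0.06 without control replicate 2), with 11 of 26 above 0. Both mutants lay below both controls in 8 of the 26 and above them in 1, against 19.5% and 19.6% of all genes. Chosen after their values were seen, *Cobl*, an actin nucleator gene next to *Grb10*, had 595 and 1611 in the controls and 310 and 546 in the mutants, and *Pon3*, a paraoxonase gene near *Ppp1r9a*, had 585 and 1041 in the controls and 338 and 582 in the mutants. Their log2 fold changes of -1.25 and -0.81 were -0.53 and -0.40 without control replicate 2, and both followed the same order of libraries as the summed alveolar type 2 markers.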

How the data were processed

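RNA of tdTomato-positive lung cells was depleted of ribosomal RNA and made into stranded total RNA libraries, which were sequenced in single-end mode. The submitters' processing notes name Trimmomatic 0.36 for trimming, STAR 2.6.0c for alignment to mm10 (GRCm38), and featureCounts from Subread 1.6.0 for counting. By the methods, reads in exons were counted, and reads in several genes or places were left out. The deposited values are a score, namely counts that the authors scaled with DESeq2 and then rounded. Raw counts are not recovered from them, so no count test was run. Instead, limma 3.58.1 (R 4.3.3) was fitted to log2(value + 1) with a mean-variance trend in the moderation. It covered the 16659 genes with a mean of at least 10, with the Benjamini-Hochberg adjustment over all of them and a threshold of 0.05. The pseudocount understates fold changes of low genes. The fit was tested on simulated data. Errors of fold changes are moderated standard errors, and tests are two-sided.

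Samples were grouped by their genotype labels, and ratios of genes were compared by exact permutation tests. Levels per kilobase used exon lengths of GENCODE on GRCm38, which held 99.8% of the table's genes. Gene coordinates are as deposited, and sequences are from RefSeq on GRCm38.p6, which has the same coordinates. Genes were described in full where the unadjusted p was under 0.05, where groups did not overlap, or where they were part of a ratio. The imprinted genes and the other lists were chosen with earlier results of these data known. The alternatives were a pseudocount of 0.5 or 8, a minimum mean of 1 or 50, TMM or equal library totals as scaling, a fit with array weights or with no trend, the replicate number as a block, and each library left out in turn.

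Besides the marker lists given with the results, sums in the controls and then the mutants were 1544 and 881 against 1046 and 1137 for mesothelium, 15119 and 14690 against 16142 and 15671 for endothelium, 6991 and 6384 against 7700 and 8526 for macrophages, and 1073 and 317 against 1135 and 1135 for T cells. They were 658 and 187 against 650 and 393 for B cells, 4297 and 6352 against 3543 and 4635 for alveolar type 1 cells, 4733 and 2952 against 3792 and 4148 for club cells, and 4413 and 3638 against 4116 and 3895 for Schwann cells. Cardiomyocyte markers gave 640 and 692 against 1022 and 779, neuroendocrine markers 137 and 213 against 190 and 227, erythroid markers 333 and 5 against 17 and 30, and dissociation stress genes 8523 and 10544 against 9006 and 6726.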

Additional observations from a re-analysis of the deposited data

How the results depend on the processing

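The count of imprinted genes past the adjusted threshold was 0 under every alternative tried, and that of all genes was 0 under all but the fit without the mean-variance trend, which called 1 gene. That fit also left 1 imprinted gene at an unadjusted p under 0.05, *Slc38a4*, in place of 2, and leaving out each library in turn gave 1 to 8. With array weights *H19* had a p of 0.0505 and *Ppp1r9a* one of 0.0328, so the count stayed at 2 with another gene. The median of the imprinted genes, 0.008, lay between -0.113 and 0.109 with a library left out. In the 13 imprinted genes whose groups did not overlap, leaving out 1 library could not change the direction. Directions without each library in turn were not counted over all genes. Of the 34 genes, 20 kept their direction without each library in turn, those 13 among them, and 14 did not. Their ranges were -0.42 to 0.15 for *Airn*, -0.12 to 0.0604 for *Cd81*, -0.16 to 0.0203 for *Gnas*, -1.06 to 0.62 for *Igf2*, -0.17 to 0.26 for *Impact*, -0.6 to 0.2 for *Kcnq1ot1*, -0.17 to 0.66 for *Meg3*, -2.1 to 0.11 for *Nnat*, -0.23 to 0.12 for *Peg12*, -0.0135 to 0.54 for *Peg3*, -0.57 to 0.0331 for *Plagl1*, -0.12 to 0.82 for *Rian*, -0.13 to 0.48 for *Snrpn* and -0.42 to 1.93 for *Zim1*. *Cd81* turned to 0.0201 with equal library totals, and no other gene changed direction under a setting that kept all 4 libraries. Among ratios, those that changed direction ranged from -0.38 to 0.25 for *Airn* to *Igf2r*, -1.39 to 0.41 for *Peg3* to *Zim1*, -0.12 to 0.26 for *Peg13* to *Trappc9* and -1.37 to 0.25 for *Nnat* to *Blcap*. The cause of these shifts was not tested. A group left with 1 library was assumed to vary like the other.

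A replicate block in the fit left 0 genes that passed the adjusted threshold, with a smallest adjusted p of 0.149, and 3 imprinted genes stood at an unadjusted p under 0.05, namely *H19*, *Slc38a4* and *Ppp1r9a* (p of 0.0126). Deviations of same-numbered libraries from their group means correlated at 0.134 over 16659 genes (Spearman 0.123), and with only 2 pairs the numbers are not shown to pair the libraries.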
